A study of Mus musculus with 6 samples.

Results

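The genes described here encode the killing machinery of cytotoxic T cells: 5 granzymes (Gzma, Gzmb, Gzmc, Gzmf and Gzmk), the pore-forming protein perforin (Prf1), the granule proteoglycan serglycin (Srgn), and the granule proteins Nkg7, Lamp1 and Ctsw. They are 10 listed genes among the 55471 gene IDs in the deposited tables, chosen by name, and all 10 were found and had enough counts to be tested. RNA was sequenced from CD90.1+ OT-I CD8+ T cells, which carry a Cas9 knock-in and a T cell receptor that recognises an ovalbumin peptide, and which had been transduced with a lentiviral vector that carried a guide against Elovl1 (sgElovl1, n = 3 libraries) or a non-targeting guide (sgNT, n = 3 libraries). Elovl1 encodes an enzyme that elongates very long-chain fatty acids. The cells of both groups had been injected into mice with orthotopic KPC_OVA tumours, a mouse pancreatic cancer line that expresses ovalbumin. All recipients in both groups received anti-PD-1 from the day after transfer, and T cells were sorted from the primary tumour 7 days after transfer. The comparison asked how loss of Elovl1 changed the transcriptome of tumour-infiltrating T cells under PD-1 blockade. The genotype label is the same for both groups and names a CRISPR library, so the guide was taken from the sample titles, and the labels give no age or sex. Cells of different mice were kept apart as replicates, but sgElovl1 replicates 1 and 2 each held pooled RNA of 2 tumours, so p-values measure the spread between these 6 samples.

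Cytotoxic T cells store granzymes and perforin in lysosome-related granules. When a T cell meets its target, granules move to the contact site and fuse with the plasma membrane, perforin opens pores in the target membrane, and granzymes, which are serine proteases, enter and cleave proteins that lead to cell death. Serglycin packs granzymes and perforin inside the granule, and LAMP1, also called CD107a, appears on the cell surface when a granule fuses.

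Total expected counts, the read pairs that RSEM assigned to genes, were between 21980273 and 26165380 per library, and 15595 to 18633 genes had a count. Elovl1 itself had 81.5, 76.6 and 95.4 CPM (counts scaled to a common library size) in the sgElovl1 libraries and 283, 280 and 255 CPM in the sgNT libraries, in the direction of the labels. The third libraries of both groups stood apart from the others on the second principal component, which held 29.1% of the variance. These 2 libraries also had the highest sums over 10 markers of tumour epithelium and acinar cells, at 306 CPM in sgElovl1 and 882 CPM in sgNT against 39.8 to 52.1 CPM in the other 4 libraries. Most of the sums of these 2 libraries was Krt8, Krt18 and Krt19. These had 106, 56.2 and 103 CPM in sgElovl1 replicate 3 and 330, 230 and 311 CPM in sgNT replicate 3. Of the acinar markers, Prss2 had 2.61 and 2.15 CPM in these 2 libraries, its lowest value of each group. Cpa1, Cela2a and Try4 had at most 0.96 CPM there, and Amy2b was at 0 in every library. CD8 T cell markers were high in all libraries, with sums over 8 genes of 9350 to 10016 CPM in sgElovl1 and 10766 to 11041 CPM in sgNT. Of these 8 markers, 3 were called lower in sgElovl1 and 1 higher: the log2 fold change was -0.45 for Cd8a, -0.49 for Cd8b1, -0.36 for Cd247 and 0.40 for Cd3e (edgeR adjusted p = 0.0346, 0.0211, 0.0495 and 0.0493). Their part in the granule gene results was not tested.

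Of the 10 granule genes, 1 was lower in sgElovl1 (Gzmk) and 0 were higher at an adjusted p under 0.05 in edgeR's quasi-likelihood test. Among all 12546 genes tested, 5.13% were called lower and 8.64% higher. At an unadjusted p under 0.05, 3 granule genes were lower (Gzmk, Prf1 and Nkg7) and 0 were higher. DESeq2 called 3 lower and 0 higher, where it called 7.98% and 9.59% of all genes, and limma-voom called 1 lower and 0 higher, where it called 5.69% and 9.49%. With a replicate block in edgeR, 2 were lower and 0 higher (4.44% and 8.92% of all genes), and with no low-count filter 2 were lower and 0 higher (2.91% and 5.81%). When the third library of each group was left out, 4 were lower and 2 higher, and 16.1% and 15.4% of all genes were called. The median log2 fold change of the 10 genes was -0.23, against -0.00 for all genes tested. That of all genes varied with gene length. In 5 equal groups of genes, from shortest to longest, the median was -0.09, -0.18, -0.10, 0.08 and 0.32. The 10 granule genes were between 752 (Nkg7) and 2349 (Prf1) bases long. With an offset for gene length in edgeR, 1 was lower and 0 higher (3.48% and 5.75% of all genes). The 3 sgElovl1 libraries did not overlap the 3 sgNT libraries for 5 genes: Gzmk, Prf1, Nkg7 and Lamp1 were below and Gzmc was above. For comparison, 17.7% of all tested genes were separated downwards and 19.4% upwards. RNA was measured in bulk, so fewer cells that express a gene and less RNA of it per cell cannot be told apart.

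**Figure D1:**
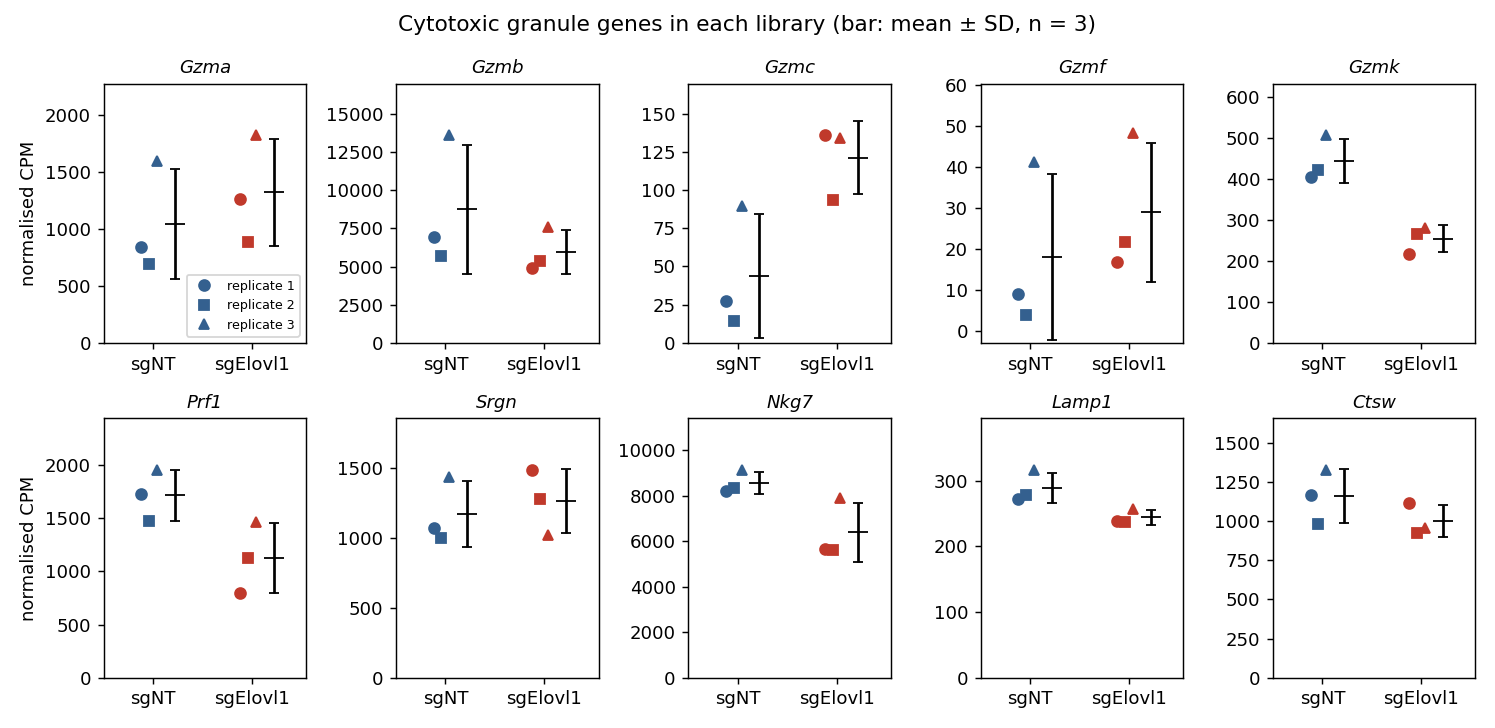
Normalised CPM (linear axis) of the 10 granule genes in each library, with sgNT in blue and sgElovl1 in red, a marker shape for each replicate number, and black bars for the mean ± SD of 3 libraries. The sgElovl1 libraries lie below all sgNT libraries for Gzmk (216 to 280 against 404 to 506 CPM) and above them for Gzmc (93.5 to 136 against 14.2 to 89.6 CPM).

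Granule genes were among the most abundant transcripts of these cells. On the TPM scale (transcript shares corrected for length), Nkg7 ranked 1 or 2 among 22215 protein-coding genes in every library. Gzmb ranked between 3 and 14, Gzma between 24 and 97, Srgn between 42 and 71, and Ctsw between 97 and 133. Prf1 ranked between 159 and 412 and Gzmk between 259 and 539. Lamp1 was lower, at rank 1078 to 1226. The widest ranges belonged to Gzmc, which ranked between 705 and 4260, and Gzmf, which ranked between 1935 and 6976. Together the 10 genes held 1.67, 1.66 and 2.14% of all expected counts in sgElovl1 and 2.01, 1.85 and 2.83% in sgNT, so the groups overlapped, and the third library was the highest of each group.

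Granzymes A and K are tryptases, which cleave after basic residues, and their genes neighbour each other on chromosome 13. Granzyme B cleaves after aspartate and activates caspases, and its gene lies beside those of the rodent granzymes C to G and N on chromosome 14. Each granzyme has a serine in its active site. The coding bases around that serine codon, in capitals, are shown because reads are assigned to these paralogs by such differences. They were read from GENCODE M21 transcripts (GRCm38) as 60 bases on the coding strand, which is the minus strand for all 5 genes.
Gzma: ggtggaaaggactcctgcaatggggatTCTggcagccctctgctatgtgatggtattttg
Gzmb: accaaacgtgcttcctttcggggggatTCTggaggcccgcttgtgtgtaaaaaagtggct
Gzmc: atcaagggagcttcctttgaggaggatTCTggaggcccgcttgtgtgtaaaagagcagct
Gzmf: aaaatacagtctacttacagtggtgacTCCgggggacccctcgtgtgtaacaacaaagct
Gzmk: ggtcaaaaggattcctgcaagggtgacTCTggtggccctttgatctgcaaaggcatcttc
The serine was codon 211 of Gzma, 203 of Gzmb, 204 of Gzmc and Gzmf, and 213 of Gzmk, counted from the start codon. Coding sequences of Gzmc, Gzmd, Gzme, Gzmf and Gzmg were 71.2 to 93.3% identical in 10 pairs, with exact shared runs of 41 to 96 bases. Gzmb was 66.0 to 76.0% identical to these 5 genes, Gzma and Gzmk were 56.1% identical to each other, and the longest run those 2 shared was 13 bases. The deposited expected counts of all granzymes were whole to the 2 decimals given in every library.

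Gzmk fell to 0.573 of its sgNT level (95% interval 0.464 to 0.706). It had 216, 266 and 280 CPM in the 3 sgElovl1 libraries, in replicate order, and 404, 421 and 506 CPM in those of sgNT. Values of 3 libraries are given in this order throughout. The means were 254 ± 33.7 CPM and 444 ± 54.2 CPM (SD, n = 3 each), and the highest sgElovl1 library stayed below the lowest sgNT library. The log2 fold change was -0.80 (SE 0.14, adjusted p = 0.00533 in edgeR's quasi-likelihood test). Gzmk was lower within each of the 3 replicate numbers, which follows from the lack of overlap. It was called in all 16 alternative fits, with log2 fold changes between -0.88 and -0.69 and adjusted p between 4.96e-07 and 0.0386. Gzmk (ENSMUSG00000042385) spans chr13:113171608-113225908 on the minus strand. The span overlaps Esm1 on the other strand, which had 31 to 109 counts per library, against 5610 to 12216 for Gzmk.

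The genes whose mean-centred log2 CPM over the 6 libraries lay nearest to that of Gzmk were Dap, Perp, Smyd2, Abi3 and Uap1l1, at root mean square differences of 0.077 to 0.112 log2 among 8763 genes compared. Dap had 111, 137 and 146 CPM in sgElovl1 and 230, 233 and 300 CPM in sgNT. Those nearest to Prf1 were Oit3, Fam213a, Entpd1, Gngt2 and Rab4a, at 0.086 to 0.127 log2. Entpd1, which encodes the ectoenzyme CD39, had 151, 171 and 242 CPM in sgElovl1 and 283, 255 and 327 CPM in sgNT. Both lists describe likeness over 6 libraries that share their depth and preparation, with no test.

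Granzyme B was the main granzyme in every library, and its groups overlapped. Gzmb had 4905, 5359 and 7614 CPM in sgElovl1 and 6955, 5672 and 13580 CPM in sgNT, with the third library highest in each group. The log2 fold change was -0.55 (95% interval -1.37 to 0.26, edgeR's quasi-likelihood test, adjusted p = 0.312), an interval that holds both a fall to 0.388 and a rise to 1.20 of the sgNT level. When the third libraries of both groups were left out, it was -0.30 and Gzmb was called lower (adjusted p = 0.0489 in edgeR). Gzmb was not called with any single library left out, and the value ran from -0.77 without sgNT replicate 2 to -0.073 without sgNT replicate 3 (adjusted p = 0.828 in edgeR).

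Gzma had 1261, 884 and 1818 CPM in sgElovl1 and 844, 695 and 1594 CPM in sgNT. The third library was again the highest in each group, and the groups overlapped. Gzma had a log2 fold change of 0.34 (95% interval -0.70 to 1.38, edgeR's quasi-likelihood test, adjusted p = 0.623). Single libraries moved this value, to 0.038 without sgElovl1 replicate 3 and to 0.79 without sgNT replicate 3 (adjusted p = 0.964 and 0.108 in edgeR). Gzma was higher in sgElovl1 within each replicate number, by 1.49-fold, 1.27-fold and 1.14-fold for numbers 1 to 3, and Gzmb was lower within each, at 0.705, 0.945 and 0.561 of the sgNT library. With a replicate block, Gzma was at 0.37 and Gzmb at -0.47 (adjusted p = 0.0877 and 0.0912 in edgeR).

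The make-up of granzyme mRNA was taken as each gene's share of the summed TPM of 10 mouse granzymes. Gzma held 30.7, 22.4 and 29.7% in sgElovl1 and 17.7, 17.5 and 17.6% in sgNT. Gzmb held 61.1, 69.1 and 63.3% in sgElovl1 and 74.8, 73.6 and 76.5% in sgNT. Neither gene's shares overlapped between the groups. Gzmc held 3.21, 2.31 and 2.13% in sgElovl1 and 0.561, 0.347 and 0.962% in sgNT, also without overlap. The small shares of Gzmd (0.216 to 0.368% against 0.052 to 0.137%) and Gzme (0.102 to 0.179% against 0.015 to 0.066%) did not overlap either. Gzmk held 4.11, 5.24 and 3.56% in sgElovl1 and 6.60, 8.33 and 4.35% in sgNT, with overlap. Exact two-sided permutation tests over the 3 and 3 libraries gave p = 0.1 for Gzma, Gzmb and Gzmc and p = 0.2 for Gzmk. After Benjamini-Hochberg adjustment over these 4 shares, the permutation tests gave 0.133 and 0.2. The smallest p this design allows is 0.1, and any share without overlap gives it. These tests therefore add nothing to the lack of overlap and could not pass 0.05. The shares of Gzmd and Gzme were not tested. The shares sum to a whole, so a higher share of 1 granzyme lowers the rest.

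**Figure D2:**
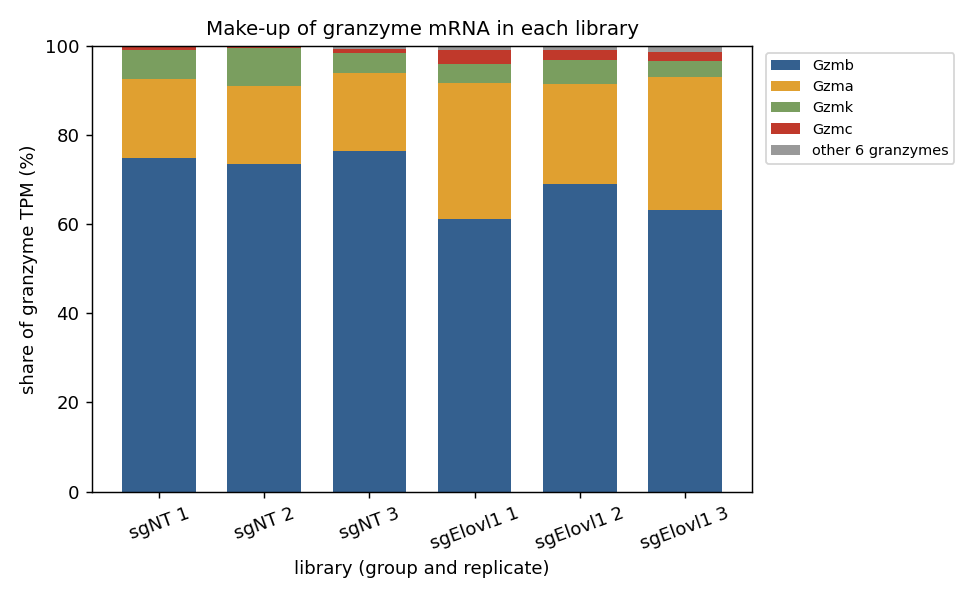
Share of the summed granzyme TPM (percent, stacked to 100) held by Gzmb, Gzma, Gzmk, Gzmc and the 6 other granzymes in each of the 6 libraries. The Gzmb share is 73.6 to 76.5% in sgNT and 61.1 to 69.1% in sgElovl1, and the Gzma share is 17.5 to 17.7% in sgNT and 22.4 to 30.7% in sgElovl1.

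Granzymes C and F belong to the group of similar proteases that mice, but not humans, carry beside granzyme B. Gzmc, a chymotrypsin-like granzyme, had 136, 93.5 and 134 CPM in sgElovl1 and 27.5, 14.2 and 89.6 CPM in sgNT. All sgElovl1 libraries were above all sgNT libraries, but sgNT replicate 3 lay close to sgElovl1 replicate 2. Gzmc had a log2 fold change of 1.47 (95% interval -0.64 to 3.58, edgeR's quasi-likelihood test, adjusted p = 0.278). Without sgNT replicate 3 it was 2.55 with an adjusted p of 0.011 in edgeR, and it was 2.46 with an adjusted p of 0.054 when the third libraries were left out. With a replicate block it was 1.86 (adjusted p = 0.0643 in edgeR).

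Gzmf was scarcer, at 16.8, 21.6 and 48.3 CPM in sgElovl1 and 8.90, 3.82 and 41.3 CPM in sgNT. The third library of each group was the highest, and the groups overlapped. This gave a log2 fold change of 0.68 (95% interval -2.20 to 3.56, edgeR's quasi-likelihood test, adjusted p = 0.713). When the third libraries were left out, it was 1.60 (adjusted p = 0.0446 in edgeR). It was 0.093 without sgElovl1 replicate 3 alone and 2.19 without sgNT replicate 3 alone, and neither passed (adjusted p = 0.967 and 0.109). In sgNT, the third library held 4.30 times the mean of the other 2 libraries for Gzmc and 6.49 times for Gzmf, against 2.15 times for Gzmb, 2.07 times for Gzma and 1.22 times for Gzmk.

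In other granzymes of this locus the third library was also the highest of its group. Gzmd had 12.0, 9.76 and 25.8 CPM in sgElovl1 and 3.75, 2.34 and 14.2 CPM in sgNT, and Gzme had 7.82, 4.30 and 10.4 CPM against 1.45, 0.624 and 6.37 CPM. For both, sgNT replicate 3 was above at least 1 sgElovl1 library. Gzme had a log2 fold change of 1.41 (edgeR's quasi-likelihood test, adjusted p = 0.360), and 1.84 with an adjusted p of 0.0248 in the edgeR fit with a replicate block. The value for Gzme was 0.95 without sgNT replicate 2, 2.87 without sgNT replicate 3 and 2.55 when the third libraries were left out (adjusted p = 0.471, 0.0127 and 0.00289 in edgeR). Gzmm, the granzyme of chromosome 10, had 3.43 to 7.47 CPM in sgElovl1 and 2.94 to 4.22 CPM in sgNT (log2 fold change 0.61, edgeR adjusted p = 0.182). Gzmm was at 0.34 without sgElovl1 replicate 2, and it passed at 0.86 without sgElovl1 replicate 3 and at 0.73 when the third libraries were left out (adjusted p = 0.594, 0.0417 and 0.0418 in edgeR). Of these 3 tested genes, 0 were called in either direction and 0 had an unadjusted p under 0.05 in edgeR. Gzmg had too few counts to be tested, with 0 to 43 counts per library, and Gzmn had 0 counts in every library. Gzmc, Gzmd, Gzme, Gzmf and Gzmm were higher in sgElovl1 within each replicate number, which for Gzmc follows from its lack of overlap. The pairs with number 3 had the smallest ratios for these genes. For Gzmc the log2 ratio was 0.58 at number 3, against 2.30 and 2.72 at numbers 1 and 2.

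**Figure D3:**
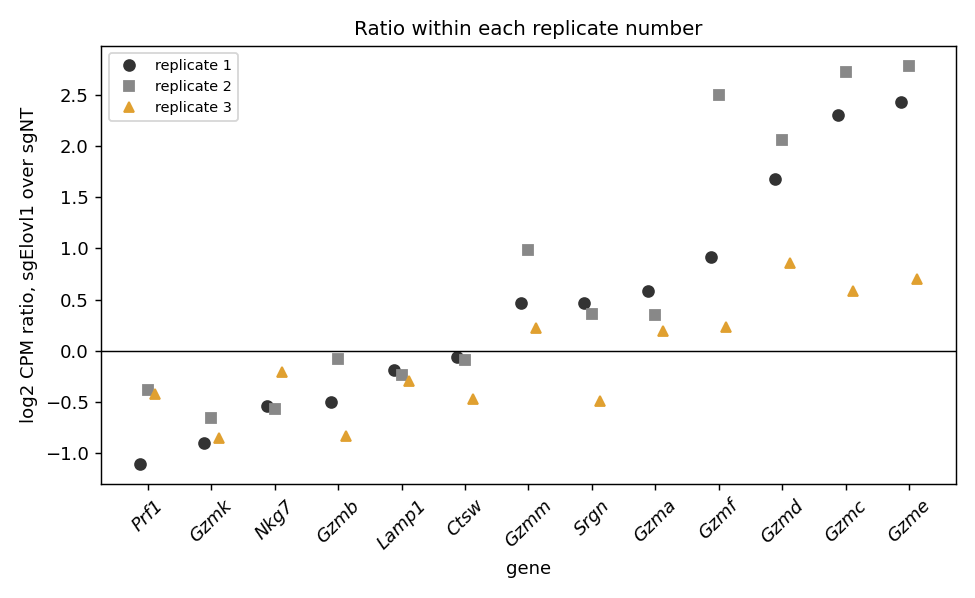
Log2 ratio of CPM in sgElovl1 over sgNT for libraries with the same replicate number (y axis), for the 10 granule genes and the other tested granzymes Gzmd, Gzme and Gzmm (x axis), with a marker for each number. All 3 markers lie above 0 for Gzma, Gzmc, Gzmd, Gzme, Gzmf and Gzmm and below 0 for Gzmb, Gzmk, Prf1, Nkg7, Lamp1 and Ctsw. For Gzmc, Gzmk, Prf1, Nkg7 and Lamp1 this follows from groups that do not overlap. Number 3 of Srgn lies at -0.49 where its other markers lie at 0.47 and 0.36.

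Sequence upstream of the granzyme starts is shown for Gzmc, Gzmd, Gzme and Gzmf, and for Gzmb and Gzmk. Any link between these bases and the RNA levels was not tested. Each line holds the 150 bases before the RefSeq start (GRCm38.p6), 5′ to 3′ on the gene's own strand, which is minus for all 6. Capitals mark motifs searched on both strands. The letters TGTGGT stand for a motif of Runx factors. An AP-1 motif was searched as the letters TGANTCA, which read alike on both strands. For T-box factors the letters were GGTGTGA. The marked matches do not overlap. Gzmc lies at chr14:56234658-56234807, Gzmd at chr14:56132594-56132743, Gzme at chr14:56120626-56120775, Gzmf at chr14:56211408-56211557, Gzmb at chr14:56262335-56262484 and Gzmk at chr13:113180966-113181115.
Gzmc: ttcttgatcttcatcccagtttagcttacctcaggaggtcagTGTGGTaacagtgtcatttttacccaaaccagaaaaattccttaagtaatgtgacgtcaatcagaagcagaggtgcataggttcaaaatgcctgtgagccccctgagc
Gzmd: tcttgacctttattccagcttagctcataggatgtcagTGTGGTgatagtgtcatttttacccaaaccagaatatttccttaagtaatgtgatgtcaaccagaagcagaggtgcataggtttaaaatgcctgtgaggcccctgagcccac
Gzme: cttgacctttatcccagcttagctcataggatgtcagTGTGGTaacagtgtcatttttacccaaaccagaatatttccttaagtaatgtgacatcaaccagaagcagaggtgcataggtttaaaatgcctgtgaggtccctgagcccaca
Gzmf: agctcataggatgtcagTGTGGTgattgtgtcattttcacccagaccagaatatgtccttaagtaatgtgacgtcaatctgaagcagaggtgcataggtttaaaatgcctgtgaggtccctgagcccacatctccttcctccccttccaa
Gzmb: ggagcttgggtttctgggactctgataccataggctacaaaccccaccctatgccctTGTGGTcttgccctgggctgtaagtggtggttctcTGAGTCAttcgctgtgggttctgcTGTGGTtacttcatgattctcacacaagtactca
Gzmk: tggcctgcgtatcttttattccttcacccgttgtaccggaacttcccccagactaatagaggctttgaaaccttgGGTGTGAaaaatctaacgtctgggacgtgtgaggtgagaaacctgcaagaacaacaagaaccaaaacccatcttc
Over the 250 bases before the start, Gzmc to Gzmg were 70.2 to 94.8% identical to each other in 10 pairs, with exact shared runs of 24 to 51 bases. Gzmb was 43.8 to 48.0% identical to them and Gzmk 48.2 to 49.8%, with shared runs of at most 9 bases. The Runx letters were found 2 times in that window in each of Gzmb, Gzmc, Gzmd, Gzme and Gzmf and 0 times in Gzmk. Of 32851 RefSeq promoters, 14% held them any number of times. The AP-1 letters, found in Gzmb, were in 6.7% of promoters, and the T-box letters, found in Gzmk, in 3.3%.

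Perforin was the granule gene nearest to the threshold after Gzmk. Prf1 had 800, 1130 and 1460 CPM in sgElovl1 and 1724, 1471 and 1951 CPM in sgNT, and the highest sgElovl1 library lay just below the lowest sgNT library. The log2 fold change was -0.60 (SE 0.21, 95% interval -1.06 to -0.15, edgeR's quasi-likelihood test, adjusted p = 0.0746). In the edgeR fit with a replicate block it was -0.63 with an adjusted p of 0.0416. Prf1 passed in 5 of the 16 alternative fits, and the adjusted p over all 16 was between 0.0093 and 0.23. It passed without sgElovl1 replicate 3, at -0.83 with an adjusted p of 0.0158 in edgeR, and was at -0.41 without sgElovl1 replicate 1.

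Nkg7, a granule membrane protein needed for full degranulation, had 5652, 5601 and 7907 CPM in sgElovl1 and 8219, 8339 and 9126 CPM in sgNT. The groups did not overlap, and the sgElovl1 replicate 3 library lay apart from replicates 1 and 2. This gave a log2 fold change of -0.42 (SE 0.17, 95% interval -0.79 to -0.05, edgeR's quasi-likelihood test, adjusted p = 0.111). Without sgElovl1 replicate 3 it was -0.61 with an adjusted p of 0.0063 in edgeR, and it was -0.56 with an adjusted p of 0.00077 when the third libraries were left out.

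Serglycin transcripts showed no single direction. Srgn had 1483, 1276 and 1023 CPM in sgElovl1 and 1071, 996 and 1437 CPM in sgNT. The third library was the lowest in sgElovl1 and the highest in sgNT. Srgn had a log2 fold change of 0.11 (95% interval -0.28 to 0.50, edgeR's quasi-likelihood test, adjusted p = 0.705). It was -0.02 without sgElovl1 replicate 1, and 0.41 with an adjusted p of 0.00861 in edgeR when the third libraries were left out.

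Lamp1 had 239, 237 and 258 CPM in sgElovl1 and 273, 278 and 316 CPM in sgNT, without overlap between the groups. The log2 fold change was -0.24 (SE 0.11, 95% interval -0.49 to 0.00, edgeR's quasi-likelihood test, adjusted p = 0.158). Its span on chromosome 8 overlaps Grtp1 on the other strand, which had 14 to 46 counts per library. Ctsw, a cysteine cathepsin found in cytotoxic lymphocytes, had 1119, 927 and 958 CPM in sgElovl1 and 1169, 984 and 1325 CPM in sgNT. The groups overlapped, and the log2 fold change was -0.21 (95% interval -0.53 to 0.10, edgeR's quasi-likelihood test, adjusted p = 0.332). It was -0.092 without sgNT replicate 3.

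**Figure D4:**
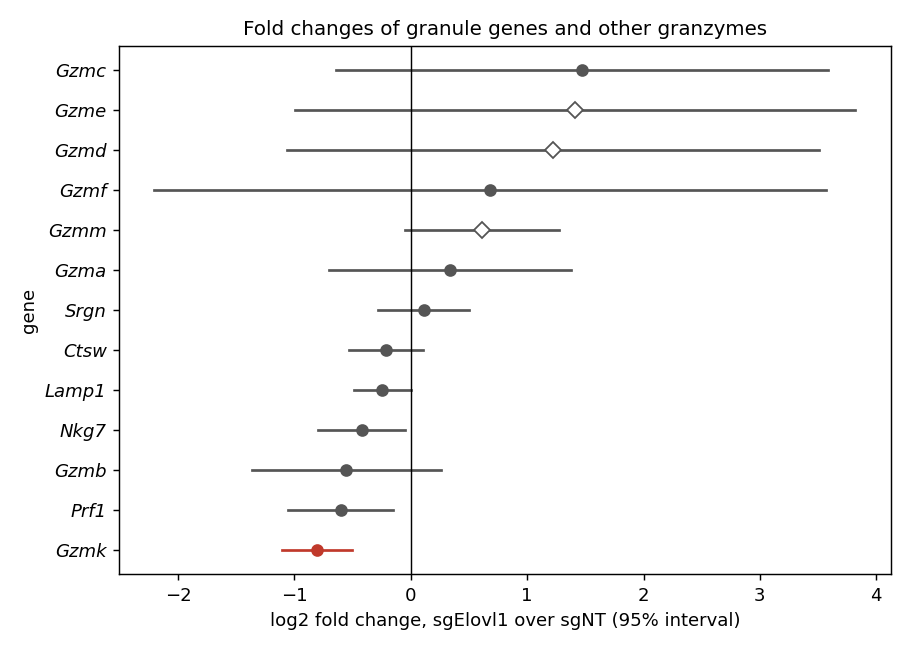
Log2 fold change of sgElovl1 over sgNT with its 95% interval (x axis) for the 10 granule genes (filled circles) and the other granzymes Gzmd, Gzme and Gzmm (open diamonds), ordered by value, with red for an adjusted p under 0.05. Gzmk at -0.80 is the red point, and the intervals of Gzmc and Gzmf run from -0.64 to 3.58 and from -2.20 to 3.56.

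Genes that mature, sort, inhibit, move or switch on granule proteins were taken from 7 lists, including the other granzymes, of 62 genes, of which 60 were tested. Of these, 3 were higher and 6 lower in sgElovl1, against 8.64% and 5.13% of all genes tested. With a replicate block in edgeR, 5 were higher and 6 lower. The 6 lower genes were not called without sgElovl1 replicate 1 and not called without sgElovl1 replicate 2, when all genes called lower numbered 81 and 42. Of the 6, 1 was called without sgNT replicate 1 (Serpina3g) and 1 without sgNT replicate 2 (Cst7).

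Granzymes are activated in the granule by cathepsins, among them cathepsin C, and cystatin F, encoded by Cst7, restrains these cathepsins. Of 6 genes of granzyme and perforin maturation, Cst7 fell, from 566, 525 and 669 CPM in sgNT to 414, 395 and 394 CPM in sgElovl1 (log2 fold change -0.55, edgeR's quasi-likelihood test, adjusted p = 0.0172). Its adjusted p was 0.0585, 0.105 and 0.0546 without sgElovl1 replicate 1, sgElovl1 replicate 2 and sgNT replicate 1. Ctsc, which encodes cathepsin C, had 415 to 785 CPM in sgElovl1 and 581 to 779 CPM in sgNT. Of 5 genes listed as granzyme inhibitors, Serpina3g fell, from 287 to 365 CPM in sgNT to 213 to 217 CPM in sgElovl1 (log2 fold change -0.57, edgeR adjusted p = 0.0132). Its product is known as an inhibitor of cysteine cathepsins, and the 4 Serpinb genes of the list were not called. Serpinb6a was at 81.0 to 94.6 CPM in sgElovl1 and 62.9 to 101 CPM in sgNT.

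Newly made granzymes carry a mannose 6-phosphate tag that directs them to granules. Of 5 genes of this route, Gnptg, a subunit of the enzyme that makes the tag, fell (log2 fold change -0.44, edgeR adjusted p = 0.0226), from 161, 164 and 179 CPM in sgNT to 117, 125 and 129 CPM in sgElovl1. Gnptab, which encodes the catalytic part of the same enzyme, had 63.3, 73.2 and 76.4 CPM in sgElovl1 and 50.3, 46.8 and 64.6 CPM in sgNT (log2 fold change 0.40, edgeR adjusted p = 0.081). With an offset for gene length, Gnptg was at -0.29 and Gnptab at 0.08 (adjusted p = 0.0813 and 0.762 in edgeR). Of 12 genes of the lysosomal membrane and hydrolases, 2 fell and 0 rose, 11 had a negative fold change, and the median log2 fold change was -0.28. Of all 12546 genes tested, 5.13% were called lower and 6318 had a negative fold change. The genes of the proteases cathepsin B and cathepsin D were the 2 that fell: Ctsb by 0.65 and Ctsd by 0.51 on the log2 scale (edgeR adjusted p = 0.0291 and 0.0325). Each was called in 10 of the 16 alternative fits. Ctsb had 913, 1107 and 1462 CPM in sgElovl1 and 1830, 1907 and 1734 CPM in sgNT. Markers of macrophages and monocytes, cells rich in lysosomes, had higher sums over 12 genes in sgElovl1 (390 to 547 CPM) than in sgNT (185 to 234 CPM). Of the 10 tested markers, 9 had a positive fold change and 4 were called higher, and Adgre1 was at 0 in every sgNT library. Cd68, the 1 with a negative fold change, had 27.5 to 39.4 CPM in sgElovl1 and 36.7 to 46.1 CPM in sgNT. Its log2 fold change was -0.34 (edgeR adjusted p = 0.159). Ccr2, the highest of the 12 markers in every library, had 230 to 274 CPM in sgElovl1 and 131 to 199 CPM in sgNT. These Cd68 and Ccr2 values are TMM-scaled, and the sums are not. The part of these markers in the lysosomal and granule results was not tested.

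Docking and fusion of granules need Rab27a with its Sytl partners, Unc13d, Stx11 and Stxbp2, and Lyst controls the size of granules. Of 18 transport genes, 2 rose and 1 fell. Lyst had 48.1, 52.8 and 50.3 CPM in sgElovl1 and 38.0, 32.5 and 28.1 CPM in sgNT (log2 fold change 0.62, edgeR adjusted p = 0.0128). Lyst has a long transcript, and with an offset for gene length it was at 0.28 with an adjusted p of 0.197 in edgeR. Its adjusted p was 0.0864 without sgElovl1 replicate 2 and 0.067 without sgNT replicate 2. Sytl2, which tethers granules to the membrane, had 84.4, 90.4 and 105 CPM in sgElovl1 and 63.8, 56.3 and 65.6 CPM in sgNT (log2 fold change 0.59, edgeR adjusted p = 0.0131). The call of Sytl2 was lost without sgElovl1 replicate 2 and without sgNT replicate 2 (adjusted p = 0.0629 and 0.0633 in edgeR). Sytl3 fell by 0.44 on the log2 scale (edgeR adjusted p = 0.0297). Rab27a had 55.7 to 61.3 CPM in sgElovl1 and 49.1 to 56.4 CPM in sgNT.

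**Figure D5:**
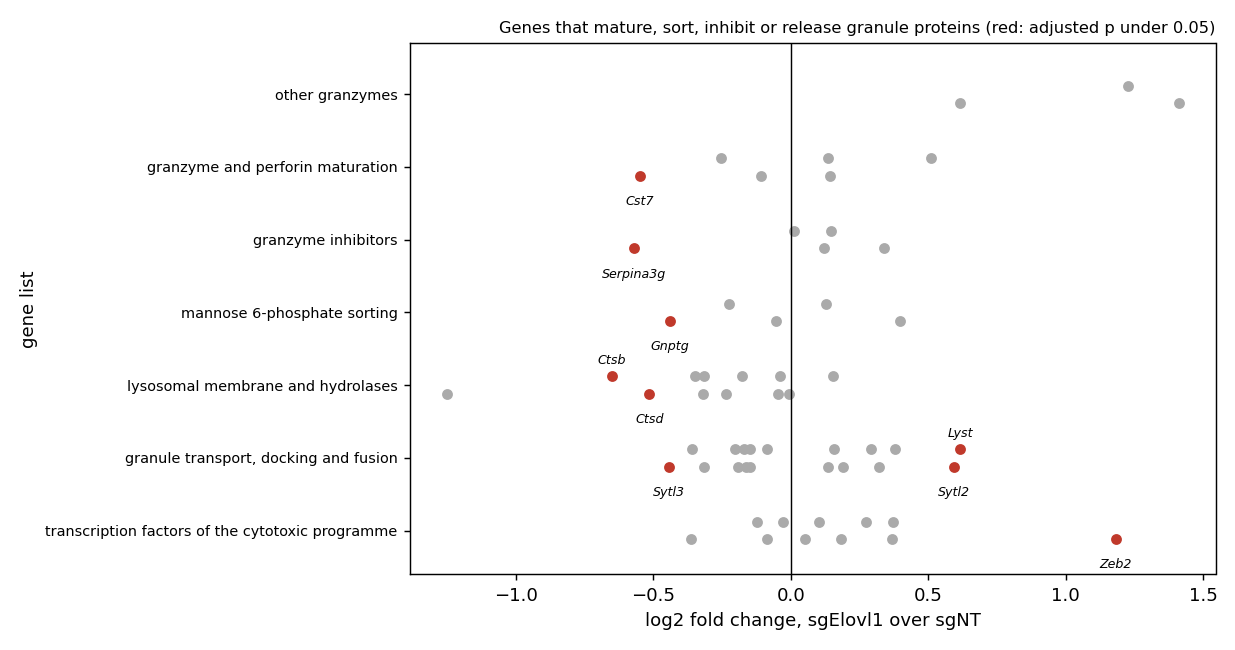
Log2 fold change of sgElovl1 over sgNT (x axis) for the 60 tested genes of the 7 lists (y axis), with a point for each gene and red for an adjusted p under 0.05. Zeb2 at 1.18 is the red point farthest to the right, and 11 of the 12 points of the lysosomal list lie below 0.

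Among 11 transcription factors of the cytotoxic programme, Zeb2, a regulator of terminal effector T cells, was the gene called. It had 27.5, 24.7 and 24.4 CPM in sgElovl1 and 13.3, 8.50 and 11.9 CPM in sgNT (log2 fold change 1.18, SE 0.17, adjusted p = 0.00299 in edgeR's quasi-likelihood test). Zeb2 kept its call in every fit with a library left out, but not in limma-trend on log2 of TPM plus 1 or 0.1 (adjusted p = 0.053 and 0.0609). The marker sums of macrophages and monocytes were also higher in sgElovl1, and their part in the Zeb2 value was not tested. Stat5b, which relays signals of interleukin receptors, had 84.8, 87.0 and 73.7 CPM in sgElovl1 and 57.9, 65.4 and 66.9 CPM in sgNT (log2 fold change 0.37, edgeR adjusted p = 0.0586). With an offset for gene length, Stat5b was at 0.04 (adjusted p = 0.846 in edgeR). The log2 fold changes of Tbx21 and Eomes, the T-box factors of cytotoxic T cells, were -0.12 (95% interval -0.36 to 0.12) and -0.03 (-0.35 to 0.29), and that of Runx3 was 0.27 (-0.01 to 0.56), with edgeR adjusted p = 0.469, 0.914 and 0.17.

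Natural killer cells and mast cells also hold granules with granzymes or serglycin, and their markers were scarce. The sum over 6 natural killer cell markers that are not granule genes was 7.57 to 15.9 CPM in sgElovl1 and 6.11 to 16.0 CPM in sgNT, Klra8 was at 0 in every library, and Ncr1 had at most 0.17 CPM. Of the 3 tested, 2 were lower in sgElovl1 without overlap: Klrb1c had 0.32 to 0.732 CPM against 1.49 to 4.72 CPM, and Klrb1b had 1.06 to 1.37 CPM against 3.07 to 5.84 CPM (log2 fold change -2.37 and -1.72, edgeR adjusted p = 0.0151 and 0.00954). Tyrobp, the third, had 4.93 to 13.8 CPM in sgElovl1 and 0.78 to 6.00 CPM in sgNT. The sum over 8 mast cell markers was 11.1 to 16.7 CPM in sgElovl1 and 3.02 to 5.28 CPM in sgNT, and most of it was Kit and Cpa3, both called higher (edgeR adjusted p = 0.0125 and 0.00321). Mcpt4, Tpsb2, Ms4a2 and Fcer1a were at 0 in every library. The part of these markers in the granule gene results was not tested.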

How the data were processed

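Reads from SMARTer-amplified cDNA were mapped to mm10 with STAR 2.7.7a and quantified with RSEM 1.3.1, and DESeq2 1.36.0 was used, per the submitters' processing notes. The annotation release and the strand setting are not given in the sources used here. The deposited tables hold expected counts (unscaled RSEM estimates per gene, rounded here), TPM from the authors' RSEM runs and gene lengths. Of 55471 IDs, 55230 matched a GENCODE M21 symbol on GRCm38.

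Groups were compared with edgeR 4.0.16 (R 4.3.3, genes kept by filterByExpr at a minimum count of 10, TMM, robust quasi-likelihood fit with group as the only term, two-sided), with Benjamini-Hochberg adjustment over 12546 genes and a threshold of 0.05. CPM are TMM-scaled for single genes, and intervals are at 95%. The biological coefficient of variation was 0.22. On simulated counts for this comparison (12297 genes tested), 15.2, 59.1 and 85.9% of genes changed by 0.5, 1 and 2 log2 were recovered, and 0.116% of unchanged genes were called.

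The labels number the samples 1 to 3 in both groups. Deviations from group means correlated at 0.21, 0.24 and 0.41 for the same numbers, so the numbers were taken as pairs in an alternative fit with a replicate block. The main fit has no term for them. For granule genes and for list genes named by the rule below, the block fit is given where it changes a call. It is also given for Gzma, Gzmb and Gzmc. The pairing rests on the sample titles and this check, which used the same counts. The titles do not say what a shared number stands for. Other alternatives were DESeq2 1.42.0, limma 3.58.1 (voom, and trend on log2 of TPM plus 1 or 0.1), DESeq2 size factors, no filter, at least 50 counts in 3 libraries, a gene length offset, leaving out each library, and leaving out the third library of both groups.

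Named were all members, Elovl1, from each list the called genes with the smallest p (at most 4, at least 2), and the 5 genes nearest to Gzmk and to Prf1 with a mean of at least 5 CPM and an ordinary symbol. Others were named after their values were seen. One listed gene is not reported here and is left out of the list counts. The members, lists and rules were chosen with earlier results of these data known.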

Additional observations from a re-analysis of the deposited data

How the results depend on the processing

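Over 16 alternatives, the 10 granule genes gave 160 results, of which 147 kept their direction and side of the threshold, 12 passed only under the alternative, 0 lost a call and 1 reversed (Srgn, -0.023 without sgElovl1 replicate 1, with a range of -0.023 to 0.30 when a library was left out). Granule genes called lower numbered 3 with DESeq2, 2 with no low-count filter, 2 with the replicate block, 4 without the third library of both groups and 1 to 3 with a library left out. Granule genes called higher numbered 2 without the third libraries and 0 to 1 with a library left out. Apart from Prf1, the replicate block changed no granule gene's call.

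Pathway genes called higher numbered 3 in the main comparison, 5 with no filter, 5 with the replicate block, 15 without the third libraries and 1 to 8 with a library left out. Those called lower numbered 6 in the main comparison, 2 with either TPM pseudocount, 3 with the length offset, 14 without the third libraries and 0 to 10 with a library left out. Over all genes, 1084 were higher in the main comparison, 721 with the length offset, 1947 without the third libraries and 279 to 1414 with a library left out. Those lower numbered 643, against 1047 with DESeq2, 162 and 177 with TPM plus 1 and 0.1, 2039 without the third libraries and 42 to 1304 with a library left out. The causes were not tested. The shares of granzyme TPM moved by less than 1 SD when computed from CPM per kilobase. Depth was ample for the granule genes, of which Gzmf had the fewest counts (98 to 1057 per library), and 3 libraries per group limit the precision.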
